A study of Mus musculus with 141 samples.

Results

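The nuclear genes for subunits and assembly factors of respiratory complex I were examined in mouse brain during nicotine exposure and withdrawal. They were chosen by name, as every protein-coding gene whose symbol begins with Nduf. There were 46 such genes among 21474 protein-coding genes and 43432 gene identifiers in the expression tables. The files hold 50 Nduf symbols, and the other 4 are processed pseudogenes (Ndufa11b, Ndufb4c, Ndufs6b and Ndufab1-ps). Poly(A) RNA was sequenced from the interpeduncular nucleus (IPN), the medial habenula (MHb), which projects to it, and the nucleus accumbens (NAc), with each library made from tissue punches of 4 pooled animals. Male C57BL/6J mice drank a saccharine solution at 3 g/L from 6 weeks of age in every group. Acute withdrawal (NAWD) mice had nicotine tartrate at 200 µg/ml nicotine base for 6 weeks and then tartaric acid for 48 h (5 IPN, 4 MHb and 4 NAc libraries). Nic mice had the same nicotine solution for 6 weeks with no withdrawal (5, 4 and 5 libraries), and TA mice had tartaric acid alone for the same time (5, 4 and 5 libraries). Late withdrawal (NLWD) mice spent 4 weeks on tartaric acid after nicotine (2, 5 and 5 libraries) and were set against age-matched TAL mice, which had tartaric acid for 10 weeks (3, 5 and 5 libraries). The labels do not say whether libraries of 1 group came from separate cohorts, so p-values measure the spread between pools. In these pooled punches, fewer cells of a type and less RNA per cell cannot be told apart.

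Complex I takes electrons from NADH, passes them through a flavin and a chain of iron-sulfur clusters to ubiquinone, and pumps protons across the inner mitochondrial membrane. Its matrix arm has an N module, where NADH is oxidised, and a Q module, where ubiquinone is reduced. Its membrane arm has a proximal and a distal part. The core of the membrane arm is encoded by the mitochondrial genome, whereas the matrix arm and all accessory subunits are encoded in the nucleus. The assembly factors help to build the complex and are absent from the finished enzyme. Ndufa4 carries the family name but is now placed in complex IV, and Ndufa4l2 is its hypoxia-induced paralogue. By these roles the members were 10 N module genes, 5 Q module genes, 10 genes each of the proximal and distal membrane arm, 8 assembly factors, the Ndufa4 pair and Ndufab1, the mitochondrial acyl carrier protein.

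Promoter windows from 250 bases before to 50 after the RefSeq transcription start were available for 40 of the 46 members (GRCm38.p6). They are shown for Ndufa7, Ndufa13 and Ndufc2, on which the withdrawal results turn, and for Ndufaf8 and Ndufs6, which differed between regions and hold a motif. The windows are chr17:33824322-33824621 (plus strand) for Ndufa7, chr8:69901971-69902270 (minus strand) for Ndufa13 and chr7:97399753-97400052 (plus strand) for Ndufc2. Those of Ndufaf8 and Ndufs6 are chr11:120098684-120098983 (plus strand) and chr13:73328433-73328732 (minus strand). The RefSeq start lies downstream of the outermost annotated start by 538 nt in Ndufa13, 60 nt in Ndufs6 and 6 nt in Ndufaf8, so the Ndufa13 window lies inside the annotated gene. The capitals mark an exact match to the YY1 motif.
Ndufa7: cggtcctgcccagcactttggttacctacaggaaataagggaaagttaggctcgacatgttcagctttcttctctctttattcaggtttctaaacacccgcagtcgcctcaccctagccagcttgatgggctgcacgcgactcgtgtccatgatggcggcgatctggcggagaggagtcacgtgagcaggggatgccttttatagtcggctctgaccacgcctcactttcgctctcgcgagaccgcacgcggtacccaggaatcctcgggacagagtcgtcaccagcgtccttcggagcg
Ndufa13: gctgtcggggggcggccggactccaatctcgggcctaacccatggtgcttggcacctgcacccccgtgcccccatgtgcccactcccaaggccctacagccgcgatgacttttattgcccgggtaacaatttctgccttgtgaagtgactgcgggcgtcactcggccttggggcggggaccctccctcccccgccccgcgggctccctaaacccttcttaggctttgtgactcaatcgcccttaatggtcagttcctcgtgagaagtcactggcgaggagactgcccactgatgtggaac
Ndufc2: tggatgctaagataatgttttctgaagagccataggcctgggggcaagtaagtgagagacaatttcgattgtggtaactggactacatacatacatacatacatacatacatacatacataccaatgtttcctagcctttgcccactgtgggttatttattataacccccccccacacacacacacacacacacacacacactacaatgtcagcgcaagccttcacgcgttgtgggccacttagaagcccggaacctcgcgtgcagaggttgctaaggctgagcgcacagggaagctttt
Ndufaf8: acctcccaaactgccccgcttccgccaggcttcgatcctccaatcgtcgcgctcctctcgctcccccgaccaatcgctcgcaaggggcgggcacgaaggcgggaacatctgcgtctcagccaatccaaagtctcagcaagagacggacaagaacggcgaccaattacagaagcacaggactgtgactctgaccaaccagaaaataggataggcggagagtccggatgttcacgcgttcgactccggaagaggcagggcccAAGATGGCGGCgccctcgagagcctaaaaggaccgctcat
Ndufs6: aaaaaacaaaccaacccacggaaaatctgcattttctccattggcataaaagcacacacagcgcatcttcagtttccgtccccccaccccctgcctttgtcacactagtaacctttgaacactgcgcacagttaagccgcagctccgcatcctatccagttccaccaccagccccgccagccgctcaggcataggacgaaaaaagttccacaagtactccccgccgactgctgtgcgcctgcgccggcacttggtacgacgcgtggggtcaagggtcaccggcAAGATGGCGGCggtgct

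The YY1 motif, searched on both strands, was in 5 of 40 member windows (12.5%; Ndufa9, Ndufaf8, Ndufs4, Ndufs6 and Ndufs7) and in 0.755% of windows of 27025 genes. The motif of NRF1, a known activator of respiratory chain genes, was in 3 of 40 (7.5%; Ndufa11, Ndufaf4 and Ndufaf5) and in 1.07% of all windows. The ETS motif CCGGAAGTG was in the window of Ndufs3 alone (2.5%, against 2.25% of all windows). The ERR motif TCAAGGTCA was in 0 of 40 and in 0.466% of all windows. The windows of Ndufa7, Ndufa13 and Ndufc2, the members past the test in acute withdrawal, held no exact match to these 4 motifs. A match is a string of letters only, and binding was not measured.

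Libraries held 31.4 M to 153.5 M mapped read pairs (median 46.8 M). Levels are in TPM, the share of each library taken by a transcript after correction for its length. Summed markers of the MHb came to 1165 to 5498 TPM in the MHb and to at most 312.5 TPM in the NAc. In the IPN they came to 101.4 to 2318.8 TPM, which overlaps their range in the MHb. NAc markers came to 1087 to 5427 TPM in the NAc and at most 261 TPM in the MHb. The IPN markers (Sst, Chrna5, Otp and Pax7) summed to 450.0 to 3504 TPM in the IPN and 561 to 1621 TPM in the NAc, so this list did not set these regions apart. MHb libraries also carried 10355 to 62749 TPM of choroid plexus and ependymal markers. A pair of libraries stood apart from their groups. In IPN NLWD2, 1 gene took 35.0% of all TPM, and in NAc NAWD2 the coding genes under 1000 nt took 34.5% of coding TPM, against up to 59.4% in the other NAWD libraries of the NAc.

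In TA mice, the members differed widely in level, with subunits at the top of the order and assembly factors near its end in every region. Ndufa3, an accessory subunit of the proximal membrane arm, was the highest, at 5036 ± 736 TPM in the MHb (SD, n = 4), 4309 ± 855 TPM in the IPN and 4348 ± 472 TPM in the NAc (SD, n = 5 each). Ndufa4 followed at 4905 ± 356, 3648 ± 771 and 2599 ± 358 TPM, and Ndufa1, another proximal subunit, stood at 3239 ± 539 TPM in the MHb and 2100.0 ± 380 TPM in the IPN. Neighbours in this order overlapped: Ndufa3 had 4213 to 5974 TPM and Ndufa4 4472 to 5308 TPM in MHb libraries. At the other end, Ndufa4l2 had 1.03, 0.09, 0.40 and 0.67 TPM in the MHb and 3.94, 2.43, 2.33, 1.93 and 4.57 TPM in the IPN. It was the one member with a mean under 1 TPM in a region. The assembly factors Ndufaf1, Ndufaf4, Ndufaf6 and Ndufaf7 held ranks 42 to 45 in each region and averaged 5.88 to 11.4 TPM in the IPN. Ndufab1 lay in the middle, at 358 ± 95.3 TPM in the IPN.

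**Figure D1:**
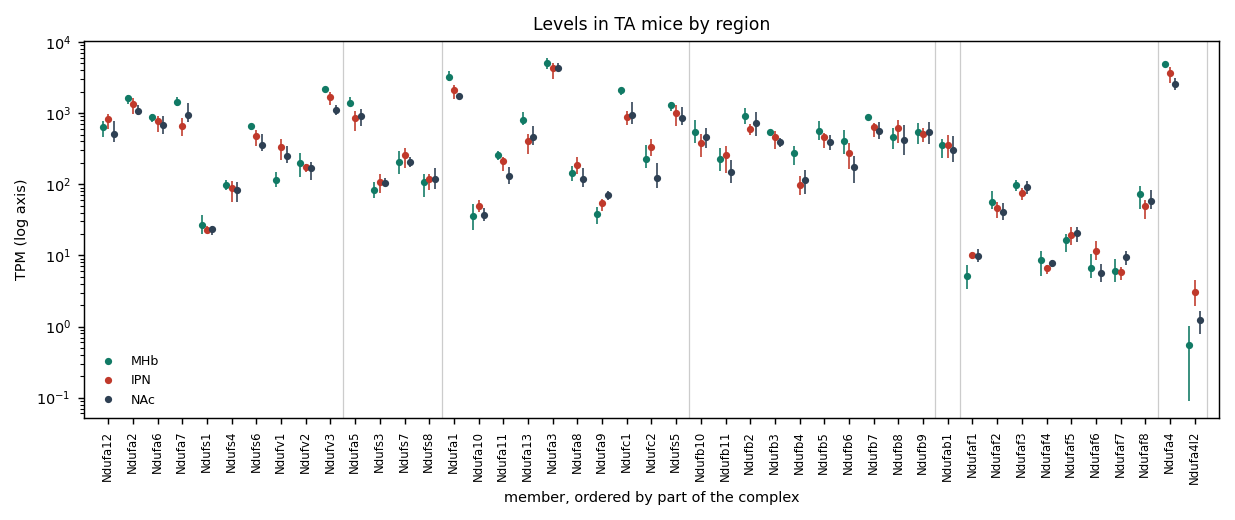
TPM (log axis) of 45 of the 46 members in TA mice, ordered by part of the complex and separated by grey lines, with means as points and vertical lines from the lowest to the highest library in the MHb (n = 4), IPN (n = 5) and NAc (n = 5). Ndufa3 and Ndufa4 are the highest in each region, and Ndufa4l2 is the lowest, at a mean of 0.55 TPM in the MHb and 3.04 TPM in the IPN.

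Members also differed between regions in TA mice. A region call was an adjusted p under 0.01 (limma on log2(TPM + 1), Benjamini-Hochberg over all genes tested). Fold changes are on that scale throughout, which understates changes of low genes such as Ndufa4l2. MHb against IPN, 4 members (8.7%) were higher and 4 (8.7%) lower, against 5.06% and 10.3% of all 16648 genes tested. Of coding genes under 600 nt, 12.7% were called higher and 4.41% lower, and of those of 600 to 1000 nt 10.3% and 10.2%. Ndufb4, of the distal membrane arm, had 188, 341, 294 and 294 TPM in the MHb, against 95.4, 78.0, 131, 70.3 and 121 TPM in the IPN (log2 fold change 1.49, SE 0.27, adjusted p = 0.000314). Ndufc1, a proximal subunit, had 1778.5, 2208, 2247 and 2192 TPM in the MHb and 889.6, 890.0, 1085, 674 and 888 TPM in the IPN (1.26, SE 0.23). Ndufa7 of the N module and Ndufa13 of the proximal arm were also higher in the MHb, by 1.125 (SE 0.22) and 0.97 (SE 0.23). None of these 4 overlapped between the regions.

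Ndufv1, the subunit that binds the flavin and oxidises NADH, went the other way. It had 149.8, 121, 91.3 and 104 TPM in the MHb, against 429, 403, 216, 269.9 and 334 TPM in the IPN (log2 fold change -1.47, SE 0.24, adjusted p = 9.5e-05). Ndufa4l2 (-1.38, SE 0.23) and the assembly factor Ndufaf1 (-0.915, SE 0.235) were lower in the MHb and did not overlap. Some reads of Ndufb4 are uncertain, because 35.2% of its 76-base words also occur in pseudogenes, mostly Ndufb4c, which stood at 321 to 679 TPM in the IPN of TA mice.

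MHb against NAc, 11 members (23.9%) were higher and 3 (6.52%) lower, against 6.9% and 27.3% of all genes. Of coding genes under 600 nt, 22.5% were called higher and 5.39% lower, and of those of 600 to 1000 nt 19.7% and 5.36%. Of the members, 4 of 9 under 600 nt and 5 of 17 of 600 to 1000 nt were higher. Of the 11 higher members, the 6 largest were Ndufb4 (log2 fold change 1.29), Ndufb6 (1.24), Ndufc1 (1.20), Ndufv3 (0.999), Ndufa11 (0.98) and Ndufa4 (0.92). Their adjusted p was 0.00023 to 0.00156 (limma). Ndufb6, a distal subunit, had 382, 410.0, 572 and 268 TPM in the MHb and 132, 195, 253, 186 and 105 TPM in the NAc. Ndufv3, an N module accessory, had 2022, 2098, 2294 and 2304 TPM in the MHb and 1098, 1086, 1298, 1067 and 926 TPM in the NAc. Both were separate in every library. Ndufa4 had 4799, 4472, 5041 and 5308 TPM in the MHb and 2804, 3066, 2550.1, 2455 and 2119 TPM in the NAc. Ndufa11, a proximal subunit, had 220.5, 249, 296 and 262 TPM in the MHb and 129, 125, 174, 124 and 102 TPM in the NAc. These values did not overlap either, nor did those of Ndufb4 (73.1 to 159 TPM in the NAc) and Ndufc1 (705 to 1427 TPM in the NAc). The other 5 were Ndufc2, Ndufa1, Ndufs6, Ndufa13 and Ndufb7 (0.69 to 0.91). Ndufv1 was again lower in the MHb (-1.09, SE 0.24), together with Ndufa9 (-0.94) and Ndufaf1 (-0.84).

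IPN against NAc, 5 members (10.9%) were higher and 0 lower, against 6.63% and 20.2% of all genes. Of coding genes under 600 nt, 14.2% were called higher and 7.84% lower, and of those of 600 to 1000 nt 14.7% and 5.76%. At an unadjusted p under 0.05 (limma), 2 members were lower. Counts of members at this unadjusted cutoff are given throughout without the share of all genes at the same cutoff. Ndufc2, the proximal partner of Ndufc1, had 316, 422, 272, 252 and 435 TPM in the IPN and 88.3, 115, 94.1, 111 and 198 TPM in the NAc (log2 fold change 1.505, SE 0.255, adjusted p = 0.000109), without overlap. Ndufaf6 (0.89), Ndufa4l2 (0.82), Ndufa11 (0.68) and Ndufv3 (0.63) were the others. Leaving out 1 library gave 1 to 6 calls, with Ndufc2 as the single one without IPN TA1, IPN TA5 or NAc TA4, and median-ratio scaling gave 11. Over the 46 members the median log2 difference was 0.22 for MHb against IPN (-0.09 over all genes), 0.29 for MHb against NAc (-0.35) and 0.20 for IPN against NAc (-0.22). In the same order, the medians were 0.26, 0.35 and 0.09 over coding genes under 600 nt. Over those of 600 to 1000 nt they were 0.08, 0.27 and 0.18. The part of transcript length in these differences was not tested. With the older TAL controls in place of TA, 1, 4 and 3 members were called in these 3 comparisons, and the direction turned for Ndufa7 (-0.01) and Ndufaf1 (0.12) for MHb against IPN, for Ndufv1 (0.27) for MHb against NAc and for Ndufaf6 (-0.31) for IPN against NAc. The shares of all genes called in these alternative fits are not given here. The labels name no preparation batch, so region and batch cannot be told apart.

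After 48 h of withdrawal, the Nduf transcripts took a larger share of the IPN library. Their sum includes the Ndufa4 pair and leaves out the mitochondrially encoded subunits of complex I. The summed TPM of the 46 members was 38519, 39502, 34585, 40008 and 39416 in the IPN of NAWD mice, against 18541 to 28006 TPM in Nic and 21118 to 30508 TPM in TA mice, without overlap. In the MHb the sum was 24404 to 31227 TPM in NAWD mice, against 29860 to 32738 TPM in Nic and 31974 to 36348 TPM in TA mice, so NAWD lay below TA. In the NAc the groups overlapped (14417 to 26451 TPM in NAWD, 22301 to 29197 TPM in Nic and 19121 to 26806 TPM in TA mice). A TPM is a share of the library, so a higher sum does not by itself mean more molecules per cell.

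**Figure D2:**
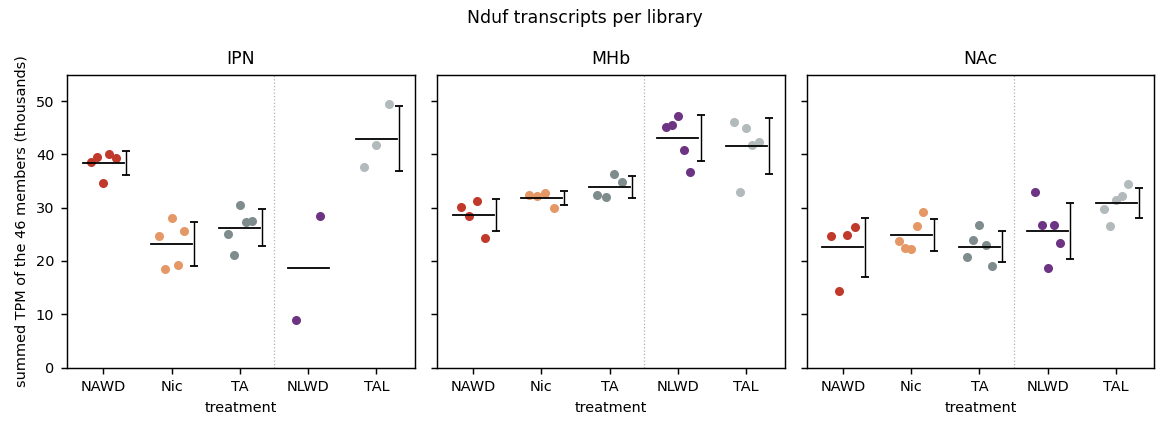
Summed TPM of the 46 members (in units of 1000 TPM) in each library (points) of the 5 treatments in 3 regions, with the group mean as a bar and the SD beside it where a group has 3 or more libraries. The dotted line separates the age-matched late pair. The 5 NAWD libraries of the IPN lie above all Nic and TA libraries, and the 2 late withdrawal libraries of the IPN lie below the 3 TAL libraries.

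In the IPN, 2 members rose in NAWD mice compared to TA controls, where 0.0768% of all 18230 genes were called higher and 0.0329% lower. A call in the treatment comparisons was an adjusted p under 0.01 in limma, after removal of factors of unwanted variation estimated from differences among libraries of 1 group. Ndufa7 (chr17:33824572-33838317, plus strand), an accessory subunit at the foot of the N module, had 1527, 1690.0, 1494, 1807 and 1768 TPM in NAWD mice, against 626, 668, 845, 474 and 729.7 TPM in TA mice. Its mean was 1657 ± 141 against 668 ± 136 TPM (SD, n = 5 each), with a fitted log2 fold change of 1.35 (SE 0.19, adjusted p = 0.00518). Ndufa13 (chr8:69894180-69902558, minus strand), a proximal membrane arm subunit also known as GRIM-19, had 771, 949, 845, 1035 and 825 TPM in NAWD mice, against 406, 421, 502, 270.2 and 447 TPM in TA mice (1.28, SE 0.19, adjusted p = 0.00882). For both, the lowest NAWD library was above the highest TA library. Of the exon bases of Ndufa13, 30.0% overlap Tssk6 on the opposite strand, which was at most 0.21 TPM in the IPN of NAWD and TA mice.

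The next members did not pass the test. Ndufc1 had 2124, 2140.4, 1871, 2115 and 1822 TPM in NAWD mice, against 889.6, 890.0, 1085, 674 and 888 TPM in TA mice (fitted log2 fold change 1.29, adjusted p = 0.0162). The assembly factor Ndufaf8, known in human cells as a partner of NDUFAF5, had 81.6, 101, 86.8, 106 and 74.35 TPM against 50.3, 44.9, 59.2, 32.8 and 60.6 TPM (0.94, adjusted p = 0.0177). Neither overlapped between NAWD and TA. Ndufb2 of the distal membrane arm had 1016, 1179, 1061, 1336 and 944 TPM in NAWD mice and 712, 524, 700.3, 499 and 580.4 TPM in TA mice (0.88, SE 0.20, adjusted p = 0.0555). Ndufb9, its neighbour in that arm, had 727, 859, 800.2, 954 and 715 TPM against 502, 514, 622, 389.9 and 545 TPM (0.72, SE 0.18, adjusted p = 0.0665). These were separate in every library too. Ndufc2 had 124, 138, 161, 209 and 168 TPM in NAWD mice, below every TA library (316, 422, 272, 252 and 435 TPM), with a fitted log2 fold change of -0.79 (SE 0.17, adjusted p = 0.0426). Ndufv1 had 129, 179, 140.4, 188 and 168 TPM in NAWD mice and 429, 403, 216, 269.9 and 334 TPM in TA mice (-0.42, SE 0.17, adjusted p = 0.25).

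Over all 46 members, the fitted log2 fold change in the IPN had a median of 0.19 (-0.03 over all genes) and was positive for 31, against 43.2% of all genes. By role, it was positive for 9 of 10 distal membrane arm genes (median 0.42), 4 of 5 Q module genes (0.19), 6 of 10 N module genes (0.18), 6 of 10 proximal membrane arm genes (0.14), 5 of 8 assembly factors (0.07) and neither of the Ndufa4 pair. The fitted values and the plain TPM did not always point the same way. Ndufa4 had 5303, 4970.4, 4309, 4436 and 4927 TPM in NAWD mice, against 3175, 2632, 4399, 4395 and 3638 TPM in TA mice, while its fitted log2 fold change was -0.27 (SE 0.20). The same fit without factors called 12 members (8 higher and 4 lower) and 8.53% of all genes, with a member median of 0.43. Both calls were lost on leaving out almost any library. Without TA4 the adjusted p was 0.0806 for Ndufa7 and 0.103 for Ndufa13, and of the 10 fits that left out 1 library, those without NAWD3 or NAWD4 kept Ndufa7 alone and the others called 0 members. With only TA and NAWD libraries in the fit the values were 0.0503 and 0.052.

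**Figure D3:**
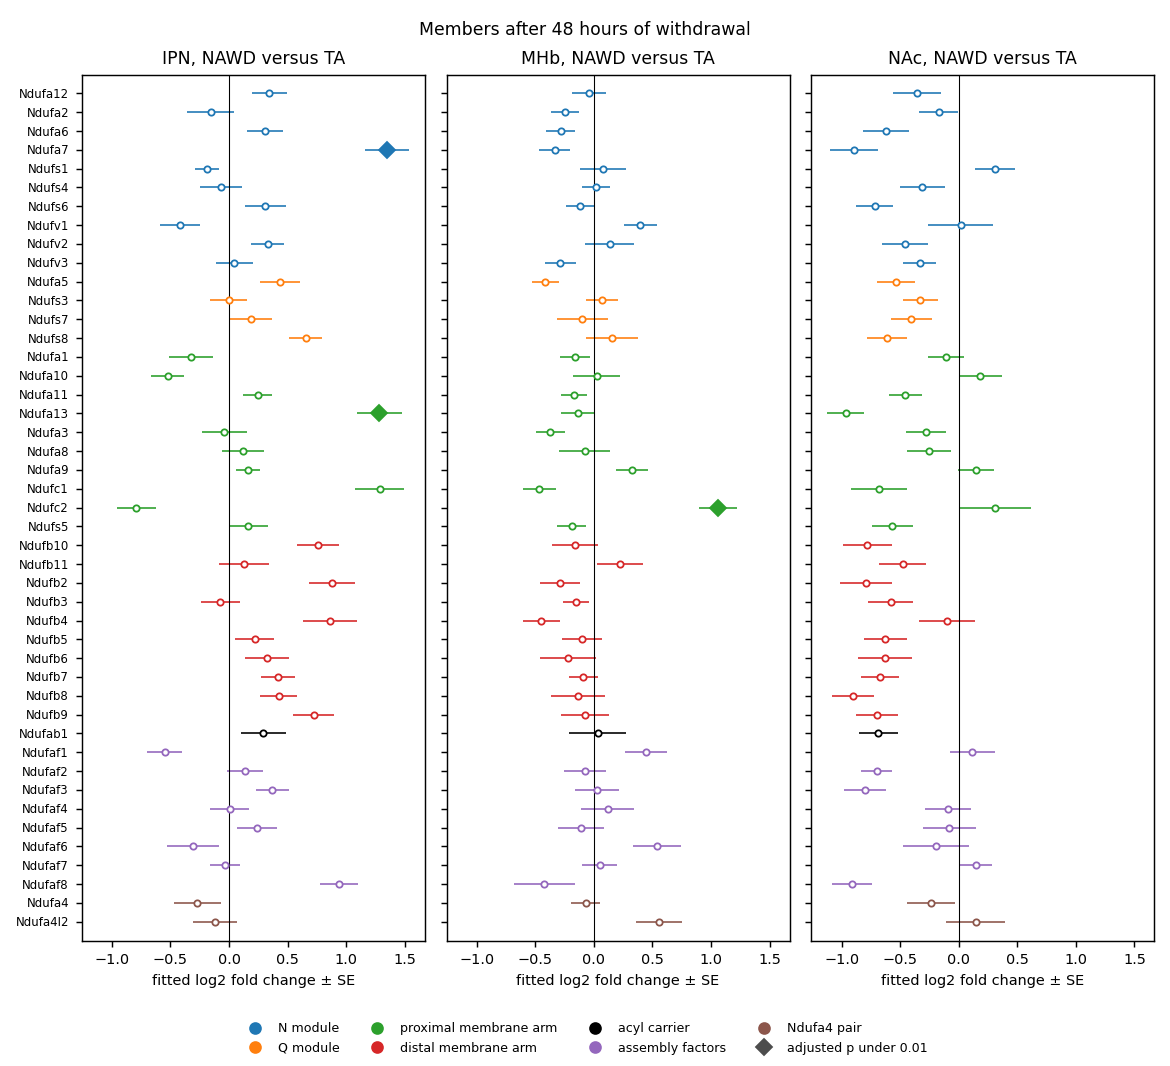
Fitted log2 fold change of 45 of the 46 members, NAWD versus TA, with the SE as horizontal lines, in the IPN, MHb and NAc, coloured by part of the complex. Filled diamonds mark an adjusted p under 0.01: Ndufa7 (1.35) and Ndufa13 (1.28) in the IPN and Ndufc2 (1.06) in the MHb.

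The plain TPM values showed the pattern without a model. In the IPN, 22 of 46 members had every NAWD library above every TA library, against 1.88% of all genes, and 4 (Ndufa10, Ndufaf1, Ndufc2 and Ndufv1) had every NAWD library below, against 21.9% of all genes. Transcript length moved with this result. Of the 26 members under 1000 nt, 16 were above, against 18.3% of 1085 coding genes of that length, and of the 20 members of 1000 nt or more, 6 were above (Ndufa13, Ndufb2, Ndufb5, Ndufs4, Ndufv2 and Ndufv3), against 0.6% of 14336 coding genes. Across members, length and the fitted log2 fold change, after removal of factors, had a Spearman rho of -0.12 (46 genes of the same libraries). No such value is given for the plain TPM. The fitted median was 0.11 over coding genes under 600 nt and 0.12 over those of 600 to 1000 nt. Over members of these lengths it was 0.16 and 0.42. With the trend over length removed, 5 members were called (4 higher and 1 lower), and Ndufa7 (1.18, adjusted p = 0.00191) and Ndufa13 (1.29, adjusted p = 0.00184) were among them. The share of all genes called in that fit is not given here, so the count is not set against a background.

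**Figure D4:**
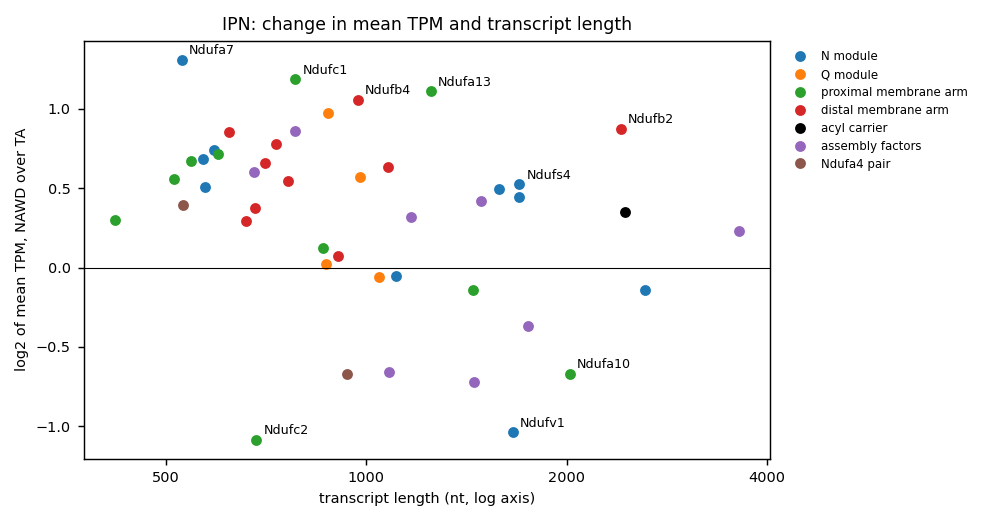
Log2 ratio of the mean TPM in the IPN, NAWD over TA, against transcript length (nt, log axis) for 45 of the 46 members, coloured by part of the complex. Members under 1000 nt lie mostly above 0, with Ndufc2 (683 nt) and Ndufa4l2 (934 nt) below it. The longer members lie on both sides of 0. Ndufa13 (1251 nt), Ndufs4 (1698 nt) and Ndufb2 (2413 nt) are among those above. Ndufv1 (1661 nt) and Ndufa10 (2020 nt) are among those below.

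Other features of the IPN libraries moved with acute withdrawal. Coding genes under 1000 nt took 58.7 to 63.5% of coding TPM in NAWD mice, against 26.5 to 46.9% in Nic and 37.9 to 54.9% in TA mice. Multiply mapped reads were 19.3 to 22% of mapped reads in NAWD mice, against 8.4 to 14.9% in Nic and 13.2 to 20.7% in TA mice. The 5 oligodendrocyte markers summed to 1253 to 2790 TPM in NAWD mice, against 5932 to 17872 TPM in Nic and 4693 to 9172 TPM in TA mice. The 5 neuronal markers summed to 466 to 622.5 TPM in NAWD mice, against 1013 to 1628 TPM in Nic and 728 to 963 TPM in TA mice, and the astrocyte, microglial and vascular lists were also below every TA library. The 6 MHb markers, measured in the IPN, summed to 487 to 715 TPM in NAWD mice and 789.8 to 2221 TPM in TA mice, again without overlap. No marker of these lists was at 0 in all libraries. The 5 red cell genes summed to 4943 to 16798 TPM in NAWD mice, against 1797 to 6603 TPM in Nic and up to 9691 TPM in TA mice. Their part in the result was not tested.

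The mitochondrially encoded subunits of the same complex did not follow the nuclear ones. Of these 7 genes, 0 had a positive fitted log2 fold change in the IPN between NAWD and TA mice, 1 fell at an adjusted p under 0.01 (limma), and the median was -0.75. Their sum was 17733 to 20403 TPM in NAWD mice and 18510 to 31831 TPM in TA mice. Of 13 other assembly factors, which carry no Nduf symbol, 0 were called and 4 were positive (median -0.06).

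Against Nic mice, 0 members were called in the IPN of NAWD mice (limma, 0.00546% of all 18326 genes). At an unadjusted p under 0.05 (limma) there were 14 members, a count not set against a background. Ndufa7 had 1128, 631, 613, 452 and 601 TPM in Nic mice, all below the NAWD libraries given above (fitted log2 fold change 1.295, adjusted p = 0.0883). Ndufa13 had 803, 438, 372, 305 and 388 TPM in Nic mice, with Nic1 inside the NAWD range (1.21, adjusted p = 0.108). Every NAWD library was above every Nic library for 20 members, against 1.78% of all genes, and below for 4 (Ndufa9, Ndufaf1, Ndufc2 and Ndufv1), against 50.9% of all genes. Of the 26 members under 1000 nt, 16 were above, against 17.1% of 1090 coding genes of that length. Of the 20 longer members, 4 were above, against 0.528% of 14400 coding genes. Without factors, 28 members were called (23 higher and 5 lower), as were 59.9% of all genes.

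Nicotine itself gave no call in the IPN. In Nic mice compared to TA controls, 0 members and 0% of 18570 genes passed (limma). At an unadjusted p under 0.05 (limma) there were 10 members, a count not set against a background. The smallest p-values belonged to Ndufa8, a proximal subunit (fitted log2 fold change -0.56, adjusted p = 0.179), and Ndufa9, at the joint of the arms (0.32, adjusted p = 0.186). Ndufa9 had 102, 91.8, 62.9, 68.8 and 72.2 TPM in Nic mice, above every TA library (59.1, 58.0, 52.1, 41.5 and 62.0 TPM). The median over members was 0.07, against 0.04 over all genes.

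In the MHb, 1 member rose in NAWD mice compared to TA controls, where 1.12% of 17136 genes were called higher and 0.0584% lower. Ndufc2 (chr7:97400003-97407802, plus strand) had 488, 526, 396 and 614 TPM in NAWD mice, against 209.7, 361, 178 and 172 TPM in TA mice, without overlap. The fitted log2 fold change was 1.06 (SE 0.16, adjusted p = 0.0052). It rose against Nic mice as well, which had 106, 143, 144 and 156 TPM (1.58, SE 0.21, adjusted p = 0.00435), where 0.573% of 17968 genes were called higher and 0.00557% lower. No 76-base word of Ndufc2 is shared with a pseudogene. Its adjusted p against TA was 0.0015 to 0.0239 over 19 alternative fits, at a log2 fold change of 0.88 to 1.28, and it passed in 11 of them. Leaving out NAWD1, NAWD2, NAWD3, TA3 or TA4 lost the call against TA (0.0103 to 0.0239), and leaving out NAWD1, NAWD3, Nic1, Nic2 or Nic3 lost it against Nic (0.0103 to 0.0276).

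**Figure D5:**
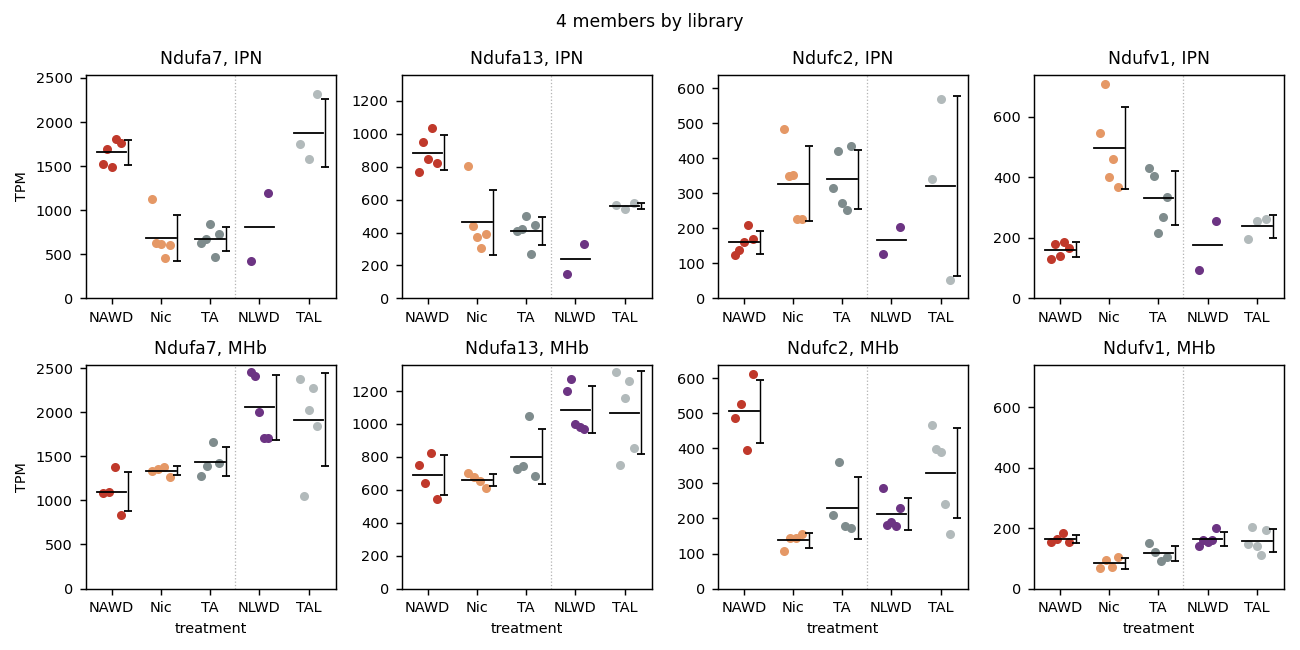
TPM of Ndufa7, Ndufa13, Ndufc2 and Ndufv1 in each library (points) of the IPN (upper row) and MHb (lower row), with the group mean as a bar and the SD beside it where a group has 3 or more libraries; each gene has 1 scale for both regions. Ndufc2 is below all TA libraries in the IPN of NAWD mice (124 to 209 TPM) and above all TA libraries in the MHb (396 to 614 TPM).

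No other member passed in the MHb against TA, while 13 had an unadjusted p under 0.05 (limma, 6 higher and 7 lower, Ndufc2 included). No count at that cutoff is set against a background here, as the share of all genes is not given. The median over members was -0.10 (0.01 over all genes), and 17 of 46 were positive. Every NAWD library was above every TA library for Ndufc2 and Ndufv1, against 4.13% of all genes, and below for 4 members (Ndufa3, Ndufa5, Ndufc1 and Ndufv3), against 0.554% of all genes. Ndufv1 had 155, 162, 182 and 155 TPM in NAWD mice, against 66.3, 94.0, 70.2 and 104 TPM in Nic and 149.8, 121, 91.3 and 104 TPM in TA mice (fitted log2 fold change against TA 0.395, adjusted p = 0.165). Ndufc1 had 1539, 1402, 1774 and 1117 TPM in NAWD mice, against 1778.5, 2208, 2247 and 2192 TPM in TA mice (-0.47, adjusted p = 0.0961). The oligodendrocyte markers summed to 1517 to 2487 TPM in NAWD mice and 551 to 1319 TPM in TA mice, and the microglial markers to 236 to 286.5 TPM in NAWD mice and 51.6 to 153 TPM in TA mice. Vascular markers (56.9 to 78.2 TPM in NAWD and 23.4 to 55.1 TPM in TA mice), the 6 MHb markers (3886 to 5498 TPM in NAWD and 2238 to 3862 TPM in TA mice) and NAc markers (138 to 261 TPM in NAWD and 49.7 to 93.2 TPM in TA mice) were likewise above every TA library. Their part in the result was not tested. In Nic mice compared to TA controls, 0 members and 0% of 17289 genes were called (limma), with 5 members at an unadjusted p under 0.05, led by Ndufc2 (-0.51, adjusted p = 0.238) and Ndufa13 (-0.38, adjusted p = 0.352).

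In the NAc, 0 members passed in any comparison of the acute groups (limma). Between NAWD and TA mice, 0% of 17750 genes were called at the adjusted threshold. At an unadjusted p under 0.05 there were 26 members, all with a negative fold change. The share of all genes at that unadjusted cutoff is not given, so this count is not set against a background. The median over members was -0.43, against -0.04 over all genes. Coding genes under 600 nt had a median of -0.34 and those of 600 to 1000 nt one of -0.24. Over members of these lengths the medians were -0.46 and -0.61. The part of transcript length was not tested. Ndufa13 had 409, 175, 448 and 436 TPM in NAWD mice and 399, 412, 663, 492 and 361 TPM in TA mice (fitted log2 fold change -0.97, adjusted p = 0.0355). Ndufaf8 had 55.3, 22.5, 50.4 and 50.7 TPM in NAWD mice and 46.2, 53.45, 83.3, 60.5 and 45.4 TPM in TA mice (-0.91, adjusted p = 0.0355). The values overlapped in both, and NAWD2 was the lowest of its group in both. The oligodendrocyte markers summed to 1421 to 8174 TPM in NAWD mice and 2332 to 4444 TPM in TA mice, and their part in the result was not tested. The median over members was -0.24 without NAWD2 and -0.07 without factors. Without TA2, 4 members were called lower, and the share of all genes called in that fit is not given here. Every NAWD library was above every TA library for 0 members, against 0.197% of all genes, and below for Ndufs7 alone, against 5.64%.

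Against Nic mice, 0 members and 0% of 17351 genes were called in the NAc of NAWD mice (limma), and 16 members had an unadjusted p under 0.05, led by Ndufaf2 (-0.53, adjusted p = 0.0604) and Ndufa13 (-0.625, adjusted p = 0.0604). In Nic mice compared to TA controls, 1.39% of 17589 genes were called (limma) but 0 members, with 18 at an unadjusted p under 0.05 (3 higher and 15 lower). Neither count at the unadjusted cutoff is set against a background. Ndufb6 had 103, 116, 122, 124 and 174 TPM in Nic mice and 132, 195, 253, 186 and 105 TPM in TA mice (fitted log2 fold change -0.99, SE 0.21, adjusted p = 0.0113). Ndufaf8 had 33.2, 44.5, 45.9, 49.7 and 54.2 TPM in Nic mice (-0.70, adjusted p = 0.0121). Both overlapped with TA.

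The response to acute withdrawal differed between regions for a part of the members. This was tested as the difference of the fold changes, NAWD over TA, between 2 regions. For the IPN minus the MHb, 4 members were called higher and 1 lower, against 0.314% and 1.09% of all 15910 genes. The higher ones were Ndufc1 (1.755, adjusted p = 0.000516), Ndufa7 (1.68, adjusted p = 0.000185), Ndufa13 (1.42, adjusted p = 0.000455) and Ndufaf8 (1.38, adjusted p = 0.00442). The lower one was Ndufc2 (-1.82, adjusted p = 0.00195), whose values were below TA in the IPN and above TA in the MHb. Of coding genes under 600 nt, 10.6% were called higher and 1.06% lower, and of those of 600 to 1000 nt 1.41% and 1.55%. Of the members, 1 of 9 under 600 nt and 2 of 17 of 600 to 1000 nt were called higher. In the MHb, Ndufa7 had 1087, 1092, 1374 and 833 TPM in NAWD mice and 1279, 1393.5, 1665 and 1424 TPM in TA mice, and Ndufa13 had 748, 644, 822 and 546 TPM in NAWD mice and 725, 745, 1049.6 and 682 TPM in TA mice. Ndufaf8 had 51.7, 53.8, 81.7 and 41.1 TPM in NAWD mice and 93.0, 94.4, 59.9 and 44.8 TPM in TA mice of the MHb. All 3 overlapped there, while they were separate in the IPN. Without factors 8 members were called, among them 4 of these 5 but not Ndufaf8 (adjusted p = 0.019), and 10 were called with the length trend removed, an alternative chosen after seeing the data. The shares of all genes called in these fits are not given here.

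For the IPN minus the NAc, 13 members were called higher and 0 lower (limma, 3 lower at an unadjusted p under 0.05), against 2.14% and 0.673% of all genes. Of coding genes under 600 nt, 20.1% were called higher, and of those of 600 to 1000 nt 12.5%. Of the members, 2 of 9 and 8 of 17 of these lengths were called higher. The part of transcript length was not tested. The 13 members included 5 of 10 distal membrane arm genes (Ndufb2, Ndufb7, Ndufb8, Ndufb9 and Ndufb10) and Ndufa7 and Ndufs6 of the N module. They also included Ndufa5 and Ndufs8 of the Q module, Ndufa13 and Ndufc1 of the proximal arm, and the assembly factors Ndufaf3 and Ndufaf8. The largest were Ndufa13 (2.27, adjusted p = 5.52e-07), Ndufa7 (2.26, adjusted p = 1.26e-06), Ndufc1 (1.99), Ndufaf8 (1.865), Ndufb2 (1.68) and Ndufb10 (1.555). In the NAc, Ndufa7 had 966, 318, 1174 and 1055 TPM in NAWD mice and 852, 854, 1371, 903 and 747 TPM in TA mice. Ndufc1 had 1184, 341, 1312 and 1375 TPM in NAWD mice and 705.0, 845, 1427, 1066 and 706 TPM in TA mice. Ndufb2 had 628, 296, 609 and 794 TPM in NAWD mice and 573, 644, 1046, 831 and 478 TPM in TA mice. All of these overlapped, with NAWD2 far below its group. Ndufb10, a distal subunit, had 472, 185, 539.5 and 636 TPM in NAWD mice and 332, 415, 622, 624 and 327 TPM in TA mice of the NAc, and 573, 678, 599, 795 and 591 TPM in NAWD mice against 355, 329, 508, 239.6 and 455 TPM in TA mice of the IPN. This count rested on the NAc libraries and on the factors. Without NAc NAWD2, 3 members passed (Ndufa13, Ndufa7 and Ndufaf8), without IPN TA4 6 passed, and without factors 0 passed. Of the 7 mitochondrially encoded subunits, 3 were called lower in the same comparison. For the MHb minus the NAc, 0 members were called (limma, 0.673% of all genes). At an unadjusted p under 0.05 (limma) there were 16 members, a count not set against a background. They were led by Ndufa13 (0.85, adjusted p = 0.0231) and Ndufaf3 (0.84, adjusted p = 0.0322).

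After 4 weeks of withdrawal, 0 members were called in any region (limma). In the IPN, 0.0861% of 12770 genes passed, and 5 members had an unadjusted p under 0.05. The summed TPM was 8868 and 28427 in NLWD mice, against 37589, 41770.0 and 49553 in TAL mice. Both NLWD libraries were below all 3 TAL libraries for 27 of 46 members, against 11.2% of all genes, and above for 0, against 9.12%. Of the 26 members under 1000 nt, 16 were below, against 35.9% of 771 coding genes of that length. Of the 20 longer members, 11 were below, against 8.81% of 10755 coding genes. Ndufaf2, an assembly factor, had 7.29 and 13.75 TPM in NLWD mice and 40.1, 49.0 and 23.0 TPM in TAL mice (fitted log2 fold change -1.82, adjusted p = 0.62). Ndufs3, a core Q module subunit, had 32.0 and 97.1 TPM in NLWD mice and 144, 218 and 175 TPM in TAL mice (-1.66, adjusted p = 0.682), and 26.8% of its 76-base words are shared with a pseudogene. The member median was -1.27, against -0.02 over all genes. Coding genes under 600 nt had a median of -1.34 and those of 600 to 1000 nt one of -0.96. The member median was -0.46 without NLWD2 and -0.39 with the trend over length removed. Coding genes under 1000 nt took 36.3 and 57.8% of coding TPM in NLWD mice, against 61.0 to 71.5% in TAL mice, and their part in the result was not tested. Without NLWD5, so that NLWD2 alone stood for the group and was assumed to vary like the TAL libraries, 23 members were called lower, among 2.99% of all genes.

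In the MHb, 0.0059% of 16956 genes and 0 members were called in NLWD mice compared to TAL controls (limma), and 0 members had an unadjusted p under 0.05. The member median was 0.00. Ndufc2 had 288, 181, 189.8, 178 and 229 TPM in NLWD mice and 468, 398, 391, 241 and 156 TPM in TAL mice (fitted log2 fold change -0.56, 95% interval -1.18 to 0.05, adjusted p = 0.794), and Ndufa4 was at 0.28 (adjusted p = 0.807). In the NAc, 0% of 17972 genes and 0 members were called (limma), and 2 members had an unadjusted p under 0.05. These were Ndufaf3 (0.30, adjusted p = 0.279) and Ndufv1 (0.39, adjusted p = 0.307), which had 148, 223, 316, 227 and 223 TPM in NLWD mice and 109 to 165 TPM in TAL mice, with 1 NLWD library inside the TAL range.

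Ndufab1 and the Ndufa4 pair did not pass in any comparison of treatments. Ndufab1 had 426, 395, 488, 604 and 366 TPM in the IPN of NAWD mice and 326, 347, 499.5, 237 and 381 TPM in TA mice (fitted log2 fold change 0.29, SE 0.19, 95% interval -0.12 to 0.71). Ndufa4l2 had 1.68, 2.41, 2.02, 1.76 and 1.68 TPM in the IPN of NAWD mice and 3.94, 2.43, 2.33, 1.93 and 4.57 TPM in TA mice (-0.12, SE 0.19). In the MHb it had 1.03, 2.17, 1.11 and 1.09 TPM in NAWD mice and 1.03, 0.09, 0.40 and 0.67 TPM in TA mice (0.56, SE 0.20, adjusted p = 0.157).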

How the data were processed

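RNA of 66 pooled punches was sequenced from 3 brain regions. The deposited TPM values were made by the authors with RSEM, and the submitters' processing notes name mm10, cutadapt 1.11, Bowtie 1.1.2, STAR 2.5.3a, RSEM 1.3.0 and DESeq2 1.14.1. The authors also deposited read counts of mapping per library, which gave the depth. TPM holds no read counts, so counting intervals were not computed, and the number of libraries sets the precision. Tables of the authors' own comparisons (fold changes and p-values) were not used, and 0 columns of values lacked a sample. The strand setting in counting is not given in the sources used here.

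Genes were kept if, in both groups compared, a share of 0.5 or more of libraries had a TPM above 0, and tested on log2(TPM + 1) with limma 3.58.1 (trend, two-sided) in R 4.3.3. Tables and figures were made in Python 3.11.15 with pandas 2.3.3 and matplotlib 3.10.9. Treatment fits held 2 factors of unwanted variation in the acute IPN, acute MHb and late NAc, and 1 in the acute NAc, late IPN and late MHb. The factors were estimated from differences among libraries of a group, and region fits held none. P-values were adjusted by Benjamini-Hochberg over all genes tested, with a threshold of 0.01. The code was tested on simulated data.

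The members and lists were chosen with earlier results of these data known. Called members were named, and without any call the 2 members with the lowest p-values, with values per library for the 6 of largest fold. Ndufb2, Ndufb9, Ndufab1, the Ndufa4 pair and the highest and lowest members were always named, and other members named here were picked with their values in view. A single member counts in the totals and is not reported here by name or drawn in figures by gene. The fits were repeated with a pseudocount of 0.1, other filters, scalings and sets of libraries, no factors, a length correction, a replicate block, TAL in place of TA and leaving out each library.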

Additional observations from a re-analysis of the deposited data

Results flagged for a closer look

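The sum and Ndufa7, Ndufa13, Ndufc2, Ndufc1, Ndufaf8, Ndufb2, Ndufb9, Ndufv1, Ndufa4 and Ndufa4l2 were checked within each group of 4 or 5 libraries. Other members were not checked. In 15 of 143 such sets of values, 1 library lay far from the others by Dixon's criterion, which chance meets in about 1 in 20 sets. The sets share libraries and are not independent. The summed TPM of the members was 34585.2 in IPN NAWD3, against 38518.6 to 40007.8 in the other NAWD libraries, and 14417.2 in NAc NAWD2, against 24625.1 to 26451.0. IPN Nic1 was high for 5 members. It had 1127.88 TPM of Ndufa7 (452.4 to 631.13 in the other Nic libraries), 802.92 TPM of Ndufa13 (304.54 to 438.39), 1768.33 TPM of Ndufc1 (636.95 to 914.06), 1068.85 TPM of Ndufb2 (470.1 to 570.36) and 914.42 TPM of Ndufb9 (395.83 to 518.2). NAc NAWD2 was low for Ndufa13 at 174.8 TPM (409.28 to 447.78) and Ndufaf8 at 22.5 TPM (50.41 to 55.29), and high for Ndufv1 at 453.22 TPM (108.15 to 136.5). Single libraries also stood apart for Ndufa4l2 in MHb NAWD2 (2.17 TPM, against 1.03 to 1.11), Ndufa13 in MHb TA3 (1049.56 TPM, against 682.21 to 744.89), Ndufc1 in MHb TA1 (1778.5 TPM, against 2192.23 to 2246.99), Ndufa7 in NAc TA3 (1370.88 TPM, against 746.62 to 903.11) and Ndufc2 in NAc TA5 (198.45 TPM, against 88.27 to 114.6).

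The log2 fold change of NAWD over TA differed between regions for 18 pairs of member and region by the interaction test (limma, adjusted p under 0.01). For the IPN minus the MHb the differences were 1.755 for Ndufc1, 1.682 for Ndufa7, 1.421 for Ndufa13, 1.379 for Ndufaf8 and -1.821 for Ndufc2. For the IPN minus the NAc they were 2.27 for Ndufa13, 2.259 for Ndufa7, 1.988 for Ndufc1, 1.865 for Ndufaf8, 1.681 for Ndufb2, 1.555 for Ndufb10, 1.438 for Ndufb9, 1.348 for Ndufb8, 1.282 for Ndufs8, 1.174 for Ndufaf3, 1.085 for Ndufb7, 1.027 for Ndufs6 and 0.963 for Ndufa5. Both sets use the same IPN libraries.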

How the results depend on the processing

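Each count of called members was recomputed under the alternatives, and the causes of the changes were not tested. Where no share of all genes is given, a count is not set against a background. The 2 calls of NAWD versus TA in the IPN became 0 with no filter, with quantile normalization, without mitochondrial genome transcripts, with only the groups compared and with libraries numbered 1 to 4. They became 4 with median-ratio scaling, 5 with the length trend removed and 12 with no factors. The 1 call of NAWD versus TA in the MHb became 0 with no factors and with only the groups compared, and that of NAWD versus Nic became 2 with no factors. NAWD versus Nic in the IPN gave 28 with no factors. Nic versus TA in the NAc, with 0 calls, gave 2 with a mean of at least 1 TPM, 2 with quantile normalization, 1 with median-ratio scaling and 3 with the length trend removed. With no factors, the interaction counts were 8 for the IPN minus the MHb and 0 for the IPN minus the NAc, and the second was 7 with quantile normalization. IPN versus NAc in TA mice gave 8 with quantile normalization and 11 with median-ratio scaling. With TAL in place of TA the region counts were 1 for MHb versus IPN, 4 for MHb versus NAc and 3 for IPN versus NAc. Chosen after seeing the data, removal of the length trend together with no factors gave 8 in the IPN against TA and 25 against Nic, and removal of the length trend gave 10 for the IPN minus the MHb and 10 for IPN versus NAc.

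Leaving out 1 library at a time gave 0 to 1 called members for NAWD versus TA in the IPN, and 0 to 1 in the MHb against TA and against Nic. The range was 0 to 23 for NLWD versus TAL in the IPN, 0 to 4 for NAWD versus TA and 0 to 1 for Nic versus TA in the NAc (1 without TA2). It was 4 to 7 for the IPN minus the MHb, 3 to 16 for the IPN minus the NAc and 0 to 2 for the MHb minus the NAc. Between regions it was 6 to 8 for MHb versus IPN, 10 to 15 for MHb versus NAc and 1 to 6 for IPN versus NAc. It was 1 without IPN TA1, IPN TA5 or NAc TA4, 2 without NAc TA1 or NAc TA2 and 3 without IPN TA3 or NAc TA5 for IPN versus NAc. The 6 other comparisons kept 0.

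Over single named members, 1332 values kept direction and side of the threshold, 207 were no longer past it, 18 came past it and 12 turned direction. Ndufb9 turned for NAWD versus TA in the MHb without NAWD4 (0.02), TA1 (0.07) or TA3 (0.04), in a range of -0.23 to 0.07 over such fits, and for NAWD versus Nic there with only the groups compared (0.01). For NAWD versus Nic in the NAc, median-ratio scaling turned Ndufb2 (0.01) and Ndufb9 (0.09), and removal of the length trend turned Ndufb9 (0.07). With TAL in place of TA, Ndufaf1 (0.12) and Ndufa7 (-0.01) turned for MHb versus IPN, Ndufv1 (0.27) for MHb versus NAc and Ndufaf6 (-0.31) for IPN versus NAc.

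Replicate numbers did not pair the libraries: over 50 pairs of the same number, deviations correlated at -0.44 to 0.55, and 17 of 61 libraries correlated best with their own number. With the replicate block, 0 members were called in the IPN and 0 in the MHb for NAWD versus TA, 0 in the MHb for NAWD versus Nic, 0 for the IPN minus the MHb and 2 for the IPN minus the NAc. The block with the length trend removed gave 0 in the IPN and turned Ndufb9 for NAWD versus Nic in the NAc (0.07). No paired analysis was possible for NLWD versus TAL in the IPN because the groups share no replicate numbers.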
